A study of Mus musculus with 55 samples.

Results

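Chromatin genes of 5 kinds are followed here through B cell development in mouse bone marrow: the histone H2A variants (H2ax, H2az1 and H2az2), the H3.3 variant genes (H3f3a and H3f3b), a factor of histone mRNA (Slbp), histone chaperones (Nasp and Chaf1b) and the maintenance DNA methyltransferase (Dnmt1). The genes were taken by symbol from the array annotation, and all probe sets so named on either array set were used. This gave 9 of the 6137 genes that are the only annotated symbol of a probe set, and 10 of the 13069 probe sets that are not controls. All 10 were among the 10229 bright enough to test. The probe set names end in _f_at for H3f3a, in _at alone for Dnmt1 and in _s_at for all others. Whether the probe sets also detect similar transcripts, such as H2az1 and H2az2 of each other, was not examined. H2ax had a probe set on each array set, and the other 8 genes had 1 each.

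RNA was measured in populations that follow each other in development. Pre-BI cells had been sorted as B220+ c-kit+ cells, and large and small pre-BII cells as B220+ CD25+ cells lacking surface immunoglobulin. The gate of immature B cells was B220low sIgM+ and that of mature B cells B220hi sIgM+. Strain, age and sex of the mice are not given in the sources used here, nor is any treatment or engineered allele. The 26 preparations were 6 of pre-BI cells and 5 from every later stage. The sample titles number them, and these numbers are read here as sort numbers. Each preparation was put on 2 array sets, named first set and b set below.

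DNA replication has to be matched by new histones, and the genes of the replication-type histones give mRNAs that end in a stem-loop and not in a poly(A) tail. Slbp binds that stem-loop and is needed for the processing and translation of these mRNAs, Nasp holds a reserve of H3 and H4, and Chaf1b is a subunit of the CAF-1 complex that places H3 and H4 on newly copied DNA. Variant histones can be made and deposited outside replication: H2A.Z marks promoters and enhancers, H3.3 replaces H3 at transcribed genes, and H2A.X is the variant that becomes phosphorylated around DNA breaks, those of immunoglobulin gene rearrangement included. Dnmt1 copies CpG methylation onto the new strand behind the fork. In the marrow, large pre-BII cells are the dividing cells that follow a productive heavy chain gene, and small pre-BII cells have stopped dividing and rearrange light chain genes.

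The regions before the start sites are shown first as a description, and their part in the levels was not tested. RefSeq windows on build GRCm38.p6, running from 250 bases before to 50 bases after an annotated start, were found for 8 of the 9 genes, H2ax having none in the table used. They were searched on both strands for CCAAT, for TTTGAA or TTCGAA (letters of the cell cycle homology region), for TTTCGCGC, TTTGGCGC, TTTCCCGC or TTTGCCGC (letters of E2F sites), for TGACGTCA and for TATAAA. The windows below are those of both H2A.Z genes, both H3.3 genes and Slbp, and the one of 3 Dnmt1 windows that holds E2F letters. Capitals mark CCAAT, the cell cycle homology letters and the E2F letters on either strand.
H2az1 chr3:137864237-137864536 (plus strand): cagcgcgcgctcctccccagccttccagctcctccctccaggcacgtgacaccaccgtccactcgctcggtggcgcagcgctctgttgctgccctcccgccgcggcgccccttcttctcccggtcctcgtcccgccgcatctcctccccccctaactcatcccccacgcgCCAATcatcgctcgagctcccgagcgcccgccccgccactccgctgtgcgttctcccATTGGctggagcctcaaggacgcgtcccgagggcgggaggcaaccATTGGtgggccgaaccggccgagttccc
H2az2 chr11:6444394-6444693 (minus strand): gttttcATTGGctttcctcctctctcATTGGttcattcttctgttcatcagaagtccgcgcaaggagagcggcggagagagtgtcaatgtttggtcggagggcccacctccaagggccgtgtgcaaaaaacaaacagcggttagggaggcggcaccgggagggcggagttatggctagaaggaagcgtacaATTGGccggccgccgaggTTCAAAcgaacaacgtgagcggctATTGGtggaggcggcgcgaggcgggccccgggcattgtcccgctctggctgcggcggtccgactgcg
H3f3a chr1:180813556-180813855 (minus strand): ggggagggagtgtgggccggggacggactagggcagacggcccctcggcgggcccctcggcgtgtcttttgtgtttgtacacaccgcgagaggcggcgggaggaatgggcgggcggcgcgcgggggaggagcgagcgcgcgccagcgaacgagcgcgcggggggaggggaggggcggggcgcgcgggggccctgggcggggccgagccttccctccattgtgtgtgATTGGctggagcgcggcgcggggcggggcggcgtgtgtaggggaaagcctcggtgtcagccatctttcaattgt
H3f3b chr11:116024455-116024754 (minus strand): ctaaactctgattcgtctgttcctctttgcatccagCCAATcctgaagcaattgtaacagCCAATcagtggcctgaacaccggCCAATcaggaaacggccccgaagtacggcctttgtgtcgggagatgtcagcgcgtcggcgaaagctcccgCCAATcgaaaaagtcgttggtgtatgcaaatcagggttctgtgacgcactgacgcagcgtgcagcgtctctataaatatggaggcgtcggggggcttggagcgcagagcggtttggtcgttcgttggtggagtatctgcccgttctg
Slbp chr5:33652525-33652824 (minus strand): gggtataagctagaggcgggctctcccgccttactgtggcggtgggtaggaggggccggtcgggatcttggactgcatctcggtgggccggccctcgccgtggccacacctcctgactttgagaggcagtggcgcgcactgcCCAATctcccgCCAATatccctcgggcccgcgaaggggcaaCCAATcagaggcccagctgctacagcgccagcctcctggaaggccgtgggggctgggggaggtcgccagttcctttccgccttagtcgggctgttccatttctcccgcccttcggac
Dnmt1 chr9:20952574-20952873 (minus strand): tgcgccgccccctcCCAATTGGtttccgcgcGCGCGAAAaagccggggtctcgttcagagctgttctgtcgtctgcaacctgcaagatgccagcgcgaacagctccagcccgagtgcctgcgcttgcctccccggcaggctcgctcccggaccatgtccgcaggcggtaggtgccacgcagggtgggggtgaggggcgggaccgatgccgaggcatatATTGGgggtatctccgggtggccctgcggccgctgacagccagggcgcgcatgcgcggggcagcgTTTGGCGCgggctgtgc

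CCAAT was present in the first listed window of 7 of 8 genes, Chaf1b lacking it, against 37.4% of all 32817 windows of 300 bases. It was found in the windows of both H3.3 genes as well as of both H2A.Z genes. The cell cycle homology letters were in the first listed windows of 3 genes, H2az2, Nasp and Dnmt1, against 19.2% of all windows. The Dnmt1 window that holds them is not the one printed above, which has none. The E2F letters were in none of the first listed windows, against 2.26% of all windows. They were found 2 times in the Dnmt1 window printed above, 219 bases before and 33 bases after its start. That window was picked for holding them, so the share over all windows is no measure for it. In that window 1 CCAAT overlaps another on the opposite strand, within CCAATTGG. TATAAA was in the H3f3b window alone among the 8, 27 bases before the start and left in small letters, against 13.6% of all windows, and TGACGTCA was in none, against 1.79%. A match of letters is a description of the window and not a binding site.

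Levels below are quantile-normalised intensities, which can be negative where a probe set lies under its own background. A noise limit taken from the negative values was 251 for first-set and 319 for b-set values, and it was chosen with the values known. Folds and log2 differences are between means of log2 values after anything under the limit was raised to it, with the SE between preparations, and "at least" is written where no preparation of the dimmer population passed the limit. Adjusted p-values were computed with limma, the Benjamini-Hochberg method being applied to all 10229 tested probe sets at once in each comparison. The sources do not tie the preparations to separate mice, so every p-value speaks only of the spread among these preparations, which may be technical, and their number limits the precision. Since RNA of whole sorted populations was measured, fewer cells of a type and less RNA per cell cannot be told apart.

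The populations were checked by the genes of their gates. Ptprc, the gene of B220, and Ighm were above the noise limit in all 26 preparations. Kit was above it in 2 of 6 pre-BI preparations and in no others, and Il2ra, the gene of CD25, in 1 of 5 small pre-BII preparations, so the labels could not be tested by either. Pax5 passed the limit in 1 of 26 preparations, although Cd79a, Cd79b and Ms4a1 passed it in all. Markers of other marrow cells were also present: Hba-a1, a haemoglobin gene, and Lyz2 and Ngp, granulocyte genes, passed the limit in all 26 preparations, while Mpo, Ltf and Ly6g of the granulocyte list passed it in none. Prtn3 of that list passed it in 4 of 5 immature and 5 of 5 mature preparations and in no others. Of the granulocyte markers 10 of 10 were on the arrays, 4 passed the limit in over 13 preparations, and their summed level ran from 6195 to 19812 in pre-BI, 4171 to 10577 in large pre-BII, 4003 to 5629 in small pre-BII, 5443 to 7789 in immature and 7415 to 11588 in mature B cells. For the erythroid markers, 6 of 10 on the arrays with Epor never above the limit, the sums were 7455 to 16330, 9723 to 15048, 5028 to 13555, 10141 to 14928 and 11434 to 16634 in the same order of stages. Of the T and NK cell markers 8 of 10 were on the arrays, 3 never above the limit (Cd3d, Cd3g and Cd8a), and their sums were 1168 to 3489, 736 to 1155, 518 to 1433, 309 to 765 and 195 to 614. Gzma, a granzyme gene of that list, averaged 1330, 353, 147, 137 and 136 and passed in 6 of 6 pre-BI, 3 of 5 large pre-BII and 0 of the other 15 preparations, so that, as for Dnmt1, no preparation passed from small pre-BII cells on. Cd3e of the same list went another way, with means of 3.88, 241, 243, 106 and -13.6. It passed in 0 of 6 pre-BI, 2 of 5 large pre-BII, 3 of 5 small pre-BII, 1 of 5 immature and 0 of 5 mature preparations. Of the monocyte markers Cd14 passed in 19 and Cd68 in 4 of 26 preparations and Csf1r, Adgre1 and Fcgr1 in none, with sums of 351 to 768, 336 to 837, 550 to 814, 363 to 738 and 410 to 1207. Of the plasma cell markers Xbp1 passed in 13, Jchain in 5, Prdm1 in 2 and Sdc1 in none, with sums of 357 to 823, 383 to 632, 468 to 832, 412 to 957 and 212 to 941. The part of these cells in the results was not tested.

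The arrays also differed in their controls. The ratio of 3′ to 5′ Gapdh signal, a sign of RNA integrity, was 1.82 to 17.4 on the first-set arrays of small pre-BII cells, against 2.85 to 6 on those of large pre-BII cells, and 3.42 to 8.33 against 2.93 to 7.24 on the b set. The high first-set ratios were those of small pre-BII sorts 8 (17.4) and 9 (12.3). Immature sort 2 had ratios of 13.4 (first set) and 17.7 (b set). In sorts 1 to 3 the first-set small pre-BII arrays had 1.82 and 5.63. The same ratio for actin was 15.1 in small pre-BII sort 8 on the b set. The other b-set small pre-BII arrays had actin ratios of 2.15 to 4.34 and the large pre-BII ones 1.92 to 4.28. On the first set small pre-BII sort 8 had an actin ratio of -20.5, where a signal was negative. The part of RNA integrity in the results was not tested. An 18S ribosomal RNA control separated the first-set arrays of sorts 1 to 3 (156 to 18619) from those of sorts 8 to 11 (-224 to 68). On the b set the ranges overlapped, at -39 to 16530 in sorts 1 to 3 and -39 to 263 in sorts 8 to 11. The main comparisons are also given within these sorts on both sets. A first-set array titled as a second one of mature B sort 1 was identical to the array of mature B sort 11 in all 6584 values and was counted once, as sort 11.

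All 10 probe sets varied over the 5 populations by the moderated F test, where 14.8% of all tested probe sets did. They varied to very different degrees. Between the brightest and the dimmest population, H2ax differed 7.4-fold by its b-set probe set, H2az2 7.82-fold, H2az1 7.1-fold, Slbp 4.77-fold and Dnmt1 at least 3.59-fold. The first-set H2ax fold of 40.6 is set largely by the limit, since 4 of 5 mature preparations lay under it and were raised to it. H3f3b differed 1.72-fold (adjusted p = 0.0248) and H3f3a 1.4-fold (adjusted p = 0.0468). The call for H3f3a was not firm: it was lost in 20 of 26 fits that each left out 1 preparation, at adjusted p up to 0.0898, and held only without pre-BI sorts 3 or 10, large pre-BII sort 2, small pre-BII sort 3, immature sort 1 or mature sort 8. It was also lost under 6 of 12 other settings, with values as deposited (0.281), both other scalings (0.152 and 0.572), second arrays left out (0.055) and within sorts 1 to 3 (0.837) and 8 to 11 (0.107). That for H3f3b was lost with values as deposited (0.0817), within sorts 1 to 3 (0.372) and 8 to 11 (0.169), without mature B sort 1 (adjusted p = 0.0506) and without mature B sort 9 (0.0882). Chaf1b lost the call under 4 of 12 settings. These were floors at the 60th percentile (0.158) and noise limit (0.132), and sorts 1 to 3 (0.2) and 8 to 11 (0.166) alone. Nasp lost it under 3, as deposited (0.128) and within those sorts (0.267 and 0.0565). Dnmt1 lost it within sorts 1 to 3 (0.0749). Both H2ax probe sets, H2az1, H2az2 and Slbp kept it throughout.

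**Figure D1:**
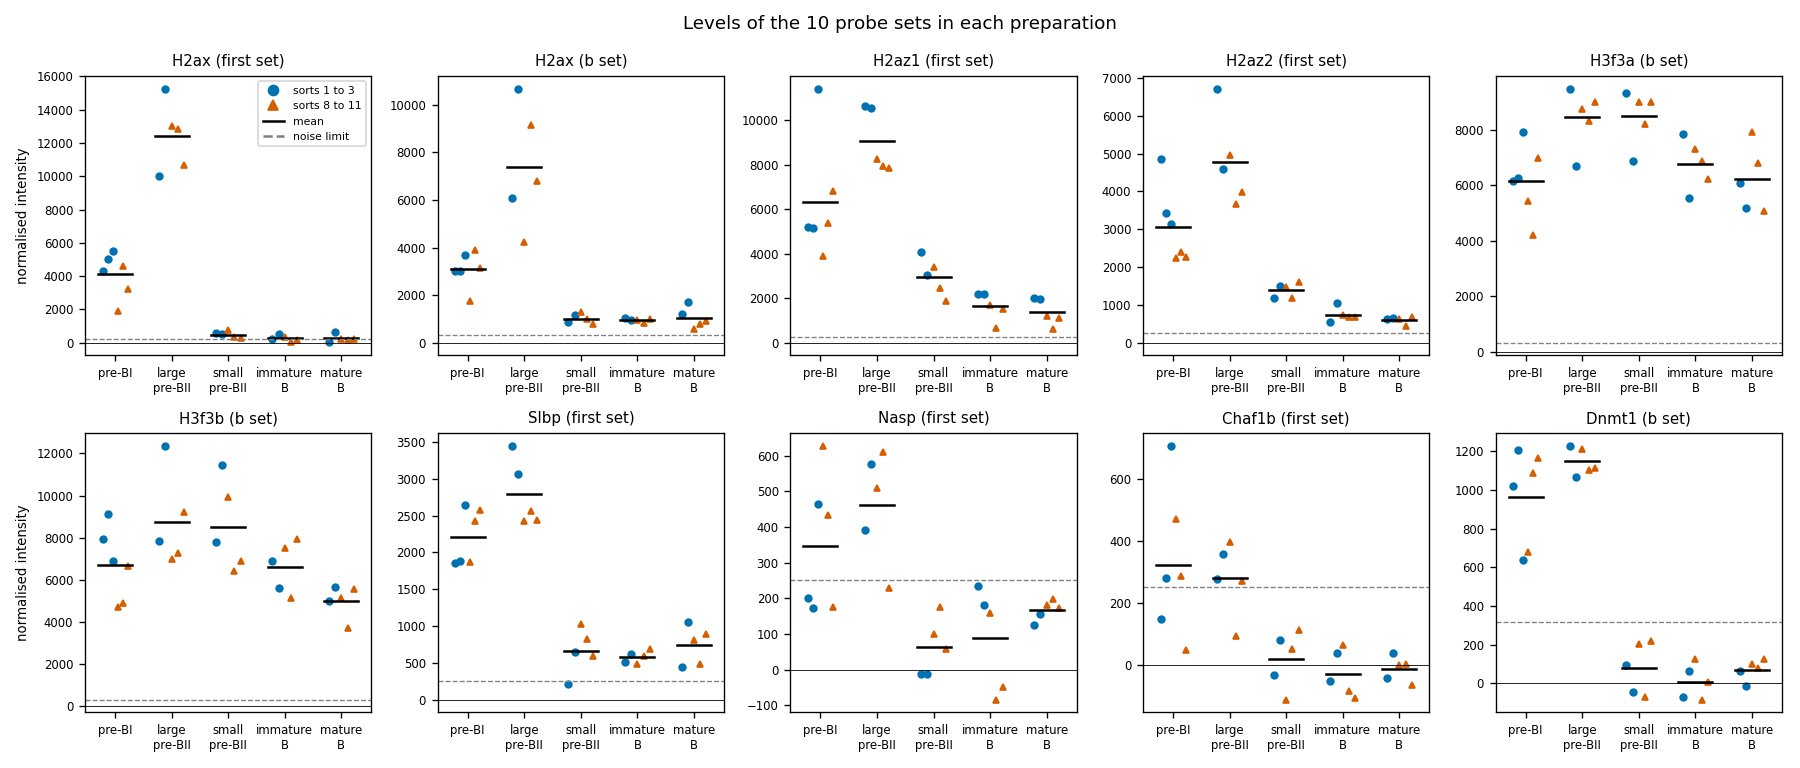
Normalised intensity of each probe set (vertical axes, linear, each panel with its own range) in every preparation of the 5 populations, in order of development. Circles are sorts 1 to 3 and triangles sorts 8 to 11, black bars are means and dashed lines the noise limit of the array set (251 or 319). The H2ax panels peak in large pre-BII cells, both H3.3 panels stay far above the limit in all populations, and the Dnmt1 panel is above the limit in pre-BI and large pre-BII cells and under it elsewhere.

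H2ax was brightest in the dividing large pre-BII cells by both of its probe sets. On the first set the pre-BI preparations ran from 1881 to 5512 with a median of 4460, the large pre-BII preparations stood at 10018, 15265, 13036, 12847 and 10674, and the small pre-BII ones at 573, 506, 736, 333 and 273. The immature preparations were at 202, 542, 350, 61 and 183 and the mature ones at 71, 623, 235, 168 and 241. Every large pre-BII preparation lay above every preparation of the other populations, and only 2 of 5 immature and 1 of 5 mature preparations passed the noise limit. H2ax thus rose 3.16-fold in large pre-BII over pre-BI cells (log2 difference 1.66 ± 0.26 SE, adjusted p = 0.0201) and fell 26.9-fold in small against large pre-BII cells (-4.75 ± 0.28, adjusted p = 1.46e-09).

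On the b set the same gene ran from 1764 to 3906 in pre-BI cells, with a median of 3085. It stood at 6090, 10683, 4225, 9136 and 6820 in large pre-BII, 858, 1145, 1273, 996 and 767 in small pre-BII, 1021, 962, 973, 814 and 993 in immature and 1216, 1717, 586, 779 and 921 in mature B cells. All 26 values were above the noise limit, and the large pre-BII values again overlapped those of no other population. The rise over pre-BI cells was 2.34-fold (1.23 ± 0.29, adjusted p = 0.00507) and the fall in small against large pre-BII cells 7.09-fold (-2.83 ± 0.27, adjusted p = 6.95e-09). No later b-set difference between neighbouring stages passed, the log2 differences being -0.06 ± 0.14 in immature against small pre-BII cells (95% interval -0.40 to 0.27) and 0.04 ± 0.27 in mature against immature cells (-0.59 to 0.67).

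Both H2ax probe sets had their highest mean in large pre-BII and their next in pre-BI cells, but the differences were not of the same size, and the order of the 3 later populations was not the same. For small against large pre-BII cells, the first-set minus the b-set log2 difference was -1.92 ± 0.29 (exact permutation test over preparations, two-sided p = 0.00794, the smallest that 5 against 5 allows). This is 1 of 17 such differences between probe sets, chosen with the values known, and its p adjusted over the 17 is 0.0112. The levels of both probe sets correlated at r = 0.94 over the 26 preparations, and at 0.44 as deviations from population means. First-set H2ax also correlated over the preparations with H2az1 and H2az2, at 0.92 and 0.93. H2ax mRNA is known to end either in the stem-loop of replication-type histones or in a poly(A) tail, and which part of the transcript each probe set covers was not examined here. The first-set call for the rise over pre-BI cells was lost without pre-BI sort 8 (adjusted p = 0.0591) and without large pre-BII sorts 2 (0.0627), 8 (0.0502) or 9 (0.0525). The b-set call held in all 26 such fits.

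H2az1 and H2az2 encode the 2 forms of H2A.Z. Both fell in small against large pre-BII cells, and H2az2 alone was called lower again in immature cells. H2az1 had a pre-BI range of 3877 to 11409 with a median of 5273, and stood at 10637, 10555, 8266, 7944 and 7832 in large pre-BII and at 4053, 3033, 3391, 2457 and 1886 in small pre-BII cells. It stood at 2202, 2167, 1710, 640 and 1535 in immature and at 1997, 1953, 1219, 609 and 1105 in mature B cells. The highest small pre-BII preparation lay under the lowest large pre-BII one, while pre-BI sort 3 was the brightest of all 26. The fall in small against large pre-BII cells was 3.13-fold (-1.64 ± 0.22, adjusted p = 0.00065). Its call was lost with values as deposited (adjusted p = 0.236) and within sorts 1 to 3 (0.108).

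H2az2 ran from 2233 to 4859 in pre-BI cells, with a median of 2764. It was at 6718, 4598, 4971, 3680 and 3979 in large pre-BII, 1185, 1497, 1481, 1177 and 1607 in small pre-BII, 550, 1060, 735, 684 and 693 in immature and 623, 658, 620, 445 and 680 in mature B cells. Small and large pre-BII preparations did not overlap, nor did immature and small pre-BII ones. H2az2 fell 3.4-fold in small against large pre-BII cells (-1.76 ± 0.18, adjusted p = 2.19e-06) and 1.9-fold further in immature against small pre-BII cells (-0.92 ± 0.18, adjusted p = 0.0258). With values as deposited neither fall was called, at adjusted p = 0.149 for the first.

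The later fall of H2az2 was the less secure, since its call was lost in 7 of the fits that left out 1 preparation. These were small pre-BII sorts 3 (adjusted p = 0.0661), 8 (0.0608) and 10 (0.0759) and immature sorts 1 (0.087), 8 (0.0521), 9 (0.0613) and 11 (0.061). H2az1 had the same size of difference there (-0.92 ± 0.38, 95% interval -1.79 to -0.05) without passing the test (adjusted p = 0.179). In mature against small pre-BII cells both were lower, H2az2 2.3-fold (adjusted p = 0.000881) and H2az1 2.27-fold (adjusted p = 0.0211), and the H2az1 call was lost in 4 of 26 fits without 1 preparation, at adjusted p up to 0.108. Those 4 left out small pre-BII sorts 1 or 8, or mature sorts 9 or 11. Both calls were also lost with values as deposited and within sorts 1 to 3, and that of H2az1 without the filter on dim probe sets, at adjusted p up to 0.552 for H2az2 and 0.616 for H2az1.

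H2ax was set against the H2A.Z genes directly at 2 steps, and at each the result depended on the H2ax probe set. In large pre-BII over pre-BI cells H2az1 and H2az2 had differences of 0.60 ± 0.24 (adjusted p = 0.556) and 0.68 ± 0.23 (adjusted p = 0.161) and did not pass. The first-set H2ax difference was larger than that of H2az1 by 1.06 ± 0.24 (exact permutation two-sided p = 0.00649, 0.0112 adjusted over the 17) and than that of H2az2 by 0.98 ± 0.30 (exact p = 0.0152, adjusted 0.0199). With the b-set H2ax the excess was 0.63 ± 0.28 over H2az1 (exact p = 0.0541, adjusted 0.0657) and 0.55 ± 0.39 over H2az2 (exact p = 0.177, adjusted 0.201), which did not pass. In immature against small pre-BII cells the differences of H2az1 and of H2az2 each lay 0.86 below that of b-set H2ax, at -0.86 ± 0.33 and -0.86 ± 0.23 (exact p = 0.00794 and adjusted 0.0112 for both). Against first-set H2ax, which had a difference of -0.54 ± 0.34 there with 3 of 5 immature preparations raised to the limit, they lay at -0.38 ± 0.32 and -0.39 ± 0.30 and did not pass (exact p = 0.31 and 0.238, adjusted 0.31 and 0.253).

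Sort numbers were taken to pair the preparations at both of these steps, and the tests above do not use the pairs. Within the 5 pairs of large pre-BII and pre-BI preparations, first-set H2ax exceeded H2az1 by 0.97 ± 0.28 and H2az2 by 1.07 ± 0.16, in 5 of 5 pairs each (exact sign-flip permutation p = 0.0625, the smallest that 5 pairs allow). With b-set H2ax the paired excess was 0.50 ± 0.18 in 4 of 5 pairs and 0.59 ± 0.22 in 5 of 5 (exact p = 0.125 and 0.0625). Within the 3 pairs of immature and small pre-BII preparations, H2az1 and H2az2 lay at -1.13 ± 0.30 and -0.83 ± 0.27 against b-set H2ax, in 3 of 3 pairs each (exact p = 0.25, the smallest that 3 pairs allow), and at -0.38 ± 0.58 and -0.08 ± 0.15 against first-set H2ax, in 1 of 3 pairs each (exact p = 1). No paired test could reach 0.05.

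The H3.3 genes H3f3a and H3f3b, which encode the same protein, stayed bright in every population. H3f3a ran from 4199 to 7936 in pre-BI cells, with a median of 6221. It stood at 9484, 6680, 8736, 8318 and 9015 in large pre-BII, at 9346, 6879, 9015, 8222 and 9015 in small pre-BII, at 7858, 5548, 7326, 6879 and 6219 in immature and at 6090, 5182, 7936, 6820 and 5068 in mature B cells. All neighbouring populations overlapped, and none of the 10 pairs of populations passed the test. The log2 difference in small against large pre-BII cells was 0.01 ± 0.12 (95% interval -0.26 to 0.28, adjusted p = 0.995). The name of this probe set marks it as one for a gene family, and H3f3a has many near-identical copies, so its signal may hold more than this gene.

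H3f3b ran from 4705 to 9136 in pre-BI cells, with a median of 6779. It stood at 7858, 12364, 7000, 7257 and 9217 in large pre-BII, at 7774, 11465, 9930, 6422 and 6879 in small pre-BII, at 6879, 5593, 7495, 5158 and 7936 in immature and at 4990, 5657, 5158, 3741 and 5548 in mature B cells. The mature preparations lay under every large and every small pre-BII preparation. H3f3b was 1.72-fold lower in mature than in large pre-BII cells (-0.78 ± 0.18, adjusted p = 0.00695) and 1.67-fold lower in mature than in small pre-BII cells (-0.74 ± 0.19, adjusted p = 0.0234). The difference from large pre-BII cells was lost within sorts 1 to 3 and within sorts 8 to 11, at adjusted p up to 0.171, and under none of the other 10 settings or 26 fits without 1 preparation. That from small pre-BII cells was lost there too, with values as deposited and with 75th-percentile scaling, at adjusted p up to 0.389. It was also lost in 3 of 26 fits without 1 preparation, those without small pre-BII sorts 3 or 8 or mature sort 9, at adjusted p up to 0.0948. Between small and large pre-BII cells the difference was -0.04 ± 0.22 (95% interval -0.55 to 0.46, adjusted p = 0.958).

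The separation of the H2A from the H3 variants at the step where division stops was tested pair by pair. In small against large pre-BII cells, each of the 4 probe sets of H2ax, H2az1 and H2az2 had a lower difference than H3f3a and than H3f3b. The gaps ran from -1.60 ± 0.22 (H2az1 and H3f3b) to -4.76 ± 0.33 (first-set H2ax and H3f3a). All 8 gave exact permutation p = 0.00794, the smallest that 5 against 5 allows, and 0.0112 adjusted over the 17. Within sorts 1 to 3 the differences of H2az1, H2az2, H3f3a and H3f3b were -1.60, -2.06, 0.01 and -0.06, and within sorts 8 to 11 they were -1.68, -1.57, 0.01 and -0.03.

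**Figure D2:**
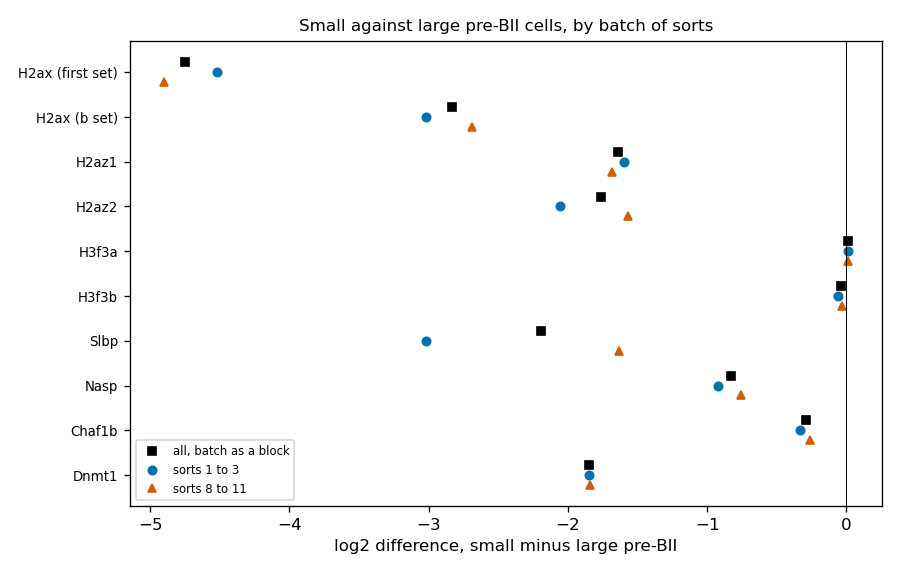
Log2 difference of small minus large pre-BII cells (horizontal axis) for each probe set, fitted over all preparations with the range of sorts as a block (squares), within sorts 1 to 3 (circles) and within sorts 8 to 11 (triangles). The H3f3a and H3f3b points lie between -0.06 and 0.01 and all other points lie under 0, down to -4.90 for first-set H2ax.

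Slbp, the stem-loop binding protein gene, had 2 plateaus. Its pre-BI values ran from 1858 to 2646 with a median of 2150, and the large pre-BII preparations stood at 3449, 3070, 2429, 2565 and 2436. The small pre-BII preparations were at 210, 643, 1031, 830 and 593, the immature ones at 508, 625, 491, 599 and 693, and the mature ones at 447, 1059, 814, 491 and 892. Every preparation of the 3 later populations lay under every pre-BI and large pre-BII preparation. Slbp fell 4.55-fold in small against large pre-BII cells (-2.19 ± 0.36, adjusted p = 3.77e-06) and was 3.11-fold lower in mature than in pre-BI cells (-1.64 ± 0.27, adjusted p = 0.000121). With values as deposited both calls were lost, at adjusted p = 0.0572 and 0.272. The second was also lost within sorts 1 to 3 (0.163). In large pre-BII against pre-BI cells the Slbp difference was 0.34 ± 0.14 (adjusted p = 0.87). Small pre-BII sort 1 was the single preparation under the noise limit.

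Nasp, the H3 and H4 chaperone gene, was dim. It ran from 173 to 628 in pre-BI cells, with a median of 318 and 3 of 6 preparations above the limit, and stood at 392, 576, 509, 609 and 230 in large pre-BII cells, with 4 of 5 above it. In small pre-BII cells it was at -11, -12, 99, 177 and 59, in immature cells at 234, 182, 160, -84 and -49 and in mature cells at 125, 156, 181, 199 and 174, all under the limit. Nasp fell at least 1.77-fold in small against large pre-BII cells (adjusted p = 0.000974), without overlap. In mature against pre-BI cells it did not pass (adjusted p = 0.195).

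Chaf1b, the CAF-1 subunit gene, was dim as well. It ran from 48 to 709 in pre-BI cells, with a median of 283, and stood at 278, 360, 397, 95 and 271 in large pre-BII cells, where 4 of 5 passed the limit. In small pre-BII cells it was at -31, 80, -112, 53 and 114, in immature cells at -51, 39, 65, -84 and -106 and in mature cells at -42, 39, 1, 4 and -63, so no preparation of these populations passed. Chaf1b fell at least 1.22-fold in small against large pre-BII cells (adjusted p = 0.0235) and at least 1.37-fold in mature against pre-BI cells (adjusted p = 0.00374). Both calls rest on values under the noise limit: with every value raised to the limit before the fit they were lost, at adjusted p = 0.414 and 0.0762. The first was also lost without large pre-BII sorts 1 (0.0501), 2 (0.065) or 8 (0.0795) and without small pre-BII sorts 3 (0.0521), 8 (0.0505) or 9 (0.0506).

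Dnmt1, the maintenance methyltransferase gene, was either plainly above the noise limit or under it. Its pre-BI values ran from 639 to 1206 with a median of 1057, and the large pre-BII preparations were at 1230, 1070, 1213, 1103 and 1115. It was at 96, -43, 204, -69 and 222 in small pre-BII, at -69, 64, 125, -84 and 8 in immature and at 66, -11, 101, 79 and 125 in mature B cells. All 11 pre-BI and large pre-BII preparations were above the limit and all 15 others under it. Dnmt1 fell at least 3.59-fold in small against large pre-BII cells (-1.85 ± 0.04, adjusted p = 0.00126) and was at least 2.94-fold lower in mature than in pre-BI cells (-1.56 ± 0.17, adjusted p = 0.00147). The small SE of the first arises because all values under the limit were set to it.

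Counted by comparison, the 10 probe sets moved at 1 step above all. In large pre-BII against pre-BI cells 2 were higher and 0 lower, both of them H2ax, where 0.87% of all tested probe sets were higher and 0.997% lower, and the median log2 difference was 0.43 against 0 over all tested. In small against large pre-BII cells 0 were higher and 8 lower, where 2.03% of all were higher and 3.27% lower, and the median was -1.70 against 0. In immature against small pre-BII cells H2az2 alone was lower and 0 were higher, where 0.88% of all were lower and 1.31% higher. In mature against immature cells limma called 0 of 10, where 0.616% of all were higher and 0.733% lower, and 0 of the 10 had an unadjusted p under 0.05. In mature against pre-BI cells 7 were lower and 0 higher, where 6.03% of all were lower and 4.78% higher, the other 3 being Nasp, H3f3a and H3f3b. In mature against large pre-BII cells 9 were lower and 0 higher, all but H3f3a, where 5.66% of all were lower and 5.23% higher.

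**Figure D3:**
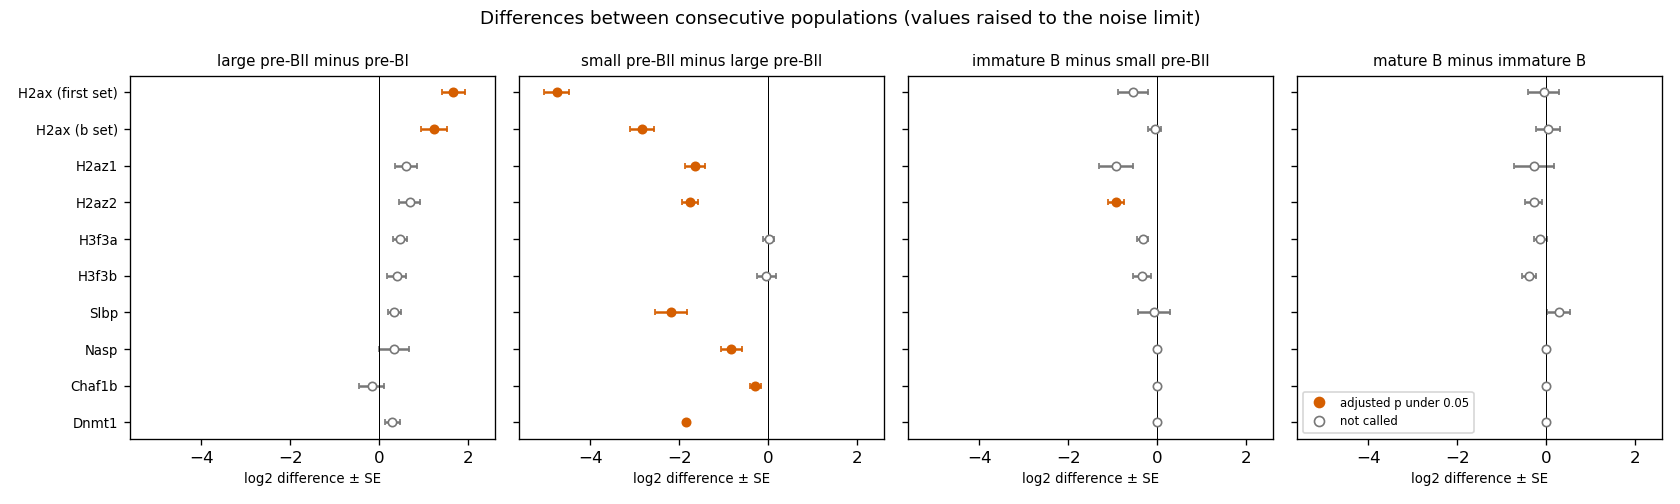
Log2 difference between consecutive populations with its SE (horizontal axes) for each probe set, the later population minus the earlier one, after values under the noise limit were raised to it. Filled points passed the adjusted p of 0.05 from limma: 2 in large pre-BII minus pre-BI, 8 in small minus large pre-BII, 1 in immature B minus small pre-BII and 0 in mature B minus immature B cells.

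When sorts 1 to 3 and sorts 8 to 11 were fitted apart, on 2 or 3 preparations per population, all 18 called differences kept their sign. The fall in small against large pre-BII cells passed in both ranges of sorts for H2ax on both sets, H2az2 and Slbp. First-set H2ax had -4.52 and -4.90, b-set H2ax -3.02 and -2.69, H2az2 -2.06 and -1.57, and Slbp -3.02 and -1.63. H2az1 passed in sorts 8 to 11 (adjusted p = 0.0127) and not in sorts 1 to 3 (adjusted p = 0.108). Dnmt1 had -1.85 and -1.84 (adjusted p = 0.213 and 0.0777), and Nasp and Chaf1b passed in neither. The rise of H2ax in large pre-BII over pre-BI cells was 1.33 and 1.99 on the first set (adjusted p = 1 and 0.0673) and 1.32 and 1.20 on the b set (adjusted p = 0.242 and 0.143).

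Other histone genes on the arrays were few and mostly dim. Of 15 such genes with a probe set annotated to them alone, 10 were tested, with a median difference of 0 in each consecutive comparison. Most of them lay near or under the noise limit, where values raised to it give 0, so this median does not show unchanged levels. With those shared by several genes, 15 such probe sets were tested, and 4 passed the limit in at least 13 of 26 preparations. Cenpa, the centromeric H3 variant, was the only one of the 10 genes called in the consecutive comparisons. It rose 2-fold in large pre-BII over pre-BI cells (adjusted p = 0.0181), fell 3.47-fold in small against large pre-BII cells (adjusted p = 4.99e-06) and fell 2.33-fold in immature against small pre-BII cells (adjusted p = 0.00293). Its means were 2170, 4230, 1260, 518 and 693 from pre-BI to mature B cells. A probe set shared by 12 replication-type H2A genes averaged 10500, 14500, 2610, 840 and 990 over the same stages, and its difference in small against large pre-BII cells was -2.81 (adjusted p = 1.33e-05). Another, shared by 2 H2A genes, averaged 3790, 4650, 1970, 889 and 682 and varied over the populations (F test adjusted p = 0.0127) without passing in small against large pre-BII cells (adjusted p = 0.302).

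Among other chaperones and assembly factors, 17 of 32 listed genes were tested. In large pre-BII against pre-BI cells limma called 0 of 17 (1 at an unadjusted p under 0.05), with a median of 0.01 against 0 over all tested. In small against large pre-BII cells 6 were lower and 0 higher, with a median of -0.50. Anp32b, an acidic histone chaperone, fell 3.43-fold (adjusted p = 4.29e-08), Rbbp4, which is shared by CAF-1 and deacetylase complexes, fell 3.31-fold (adjusted p = 0.000312), and Asf1b, the Asf1 chaperone of dividing cells, fell 4.66-fold (adjusted p = 0.000537). Rbbp7, Nap1l1 and Nap1l4 fell 1.91- to 2.12-fold. Hira and Daxx, which serve replication-independent H3.3 deposition, had differences of 0.49 ± 0.39 and 0.50 ± 0.33 (adjusted p = 0.582 and 0.682).

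In immature against small pre-BII cells and in mature against immature cells, limma called 0 of these 17 chaperone genes (2 at an unadjusted p under 0.05 in each), with medians of 0 and -0.02. In mature against small pre-BII cells 2 were higher and 1 lower, where 2.3% of all were higher and 2.3% lower. Nap1l1, a chaperone of H2A and H2B, rose 2.7-fold to a mean of 3540 in mature cells, against 1370 in small pre-BII cells (adjusted p = 0.00013). Anp32b rose 1.65-fold (adjusted p = 0.0152), and Actl6a, a subunit of remodelling complexes, fell 2.09-fold (adjusted p = 0.0185).

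Of 13 genes listed for histone mRNA processing 4 were tested, and limma called 0 in any consecutive comparison, with 0, 2, 1 and 0 at an unadjusted p under 0.05 (medians -0.01, 0.53, -0.17 and -0.20 in order of stages). Cpsf3, the endonuclease that cuts histone pre-mRNA, was 3.37-fold higher in mature than in large pre-BII cells (adjusted p = 0.0067), and Cstf2, a cleavage stimulation factor gene, was 2.05-fold lower (adjusted p = 0.0115). Of 17 DNA methylation genes 7 were tested. Mbd2, a reader of methylated CpG, fell 2.08-fold in small against large pre-BII cells (adjusted p = 0.0221), with a list median of -0.08. In the other consecutive comparisons limma called 0 of 7, with 1, 2 and 0 at an unadjusted p under 0.05 and medians of 0.08, 0.05 and -0.04. Dnmt3a, a de novo methyltransferase, had a difference of 0.56 ± 0.21 in small against large pre-BII cells (adjusted p = 0.709), where Dnmt1 fell.

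The cell cycle lists give the setting for these values. In large pre-BII against pre-BI cells limma called 0 of 24 S phase genes (2 at an unadjusted p under 0.05, median 0.14), while 6 of 23 G2 and mitosis genes rose (median 1.02), Ube2c 3.52-fold, Ttk 2.03-fold and Top2a 2.87-fold among them. In small against large pre-BII cells 18 of 24 S phase genes fell (median -1.40) and 23 of 23 G2 and mitosis genes did (median -2.96). Rrm1, a ribonucleotide reductase subunit, fell 7.33-fold (adjusted p = 2.44e-06) and Mki67, a proliferation marker, 7.77-fold (adjusted p = 1.35e-10). In immature against small pre-BII cells 1 S phase gene (Rrm2) and 3 G2 and mitosis genes (Mki67, Ccnb2 and Kif2c) fell, and in mature against immature cells limma called 0 of either list (1 of each at an unadjusted p under 0.05), with medians of 0.

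**Figure D4:**
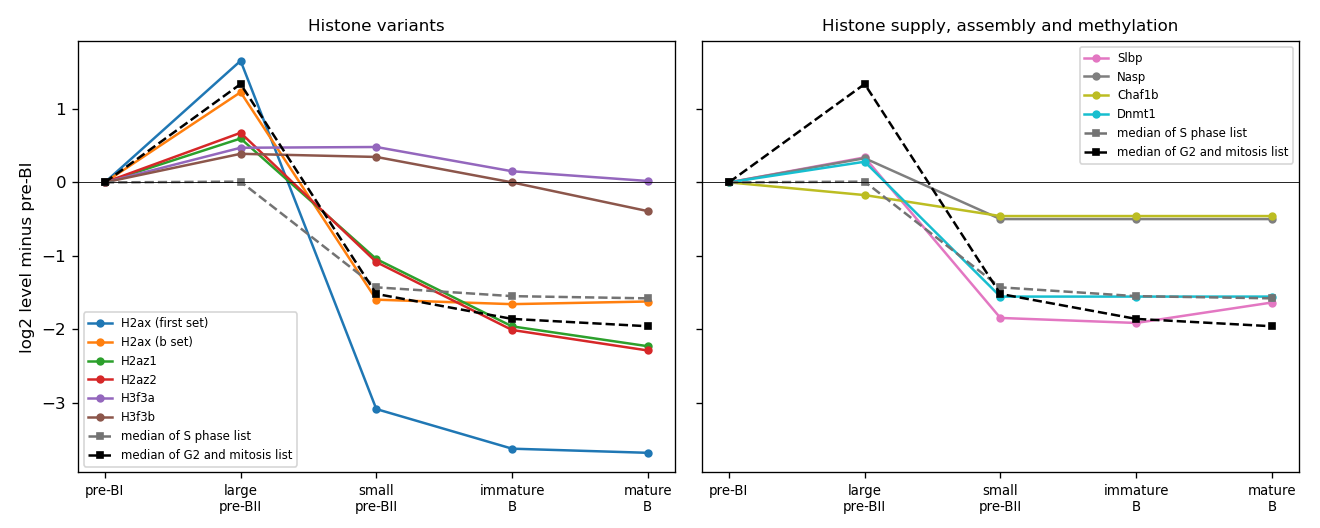
Mean log2 level of each probe set relative to pre-BI cells (vertical axis, values raised to the noise limit) over the 5 populations in order of development, with the medians of the S phase and G2 and mitosis lists as dashed lines. In small pre-BII cells the H2ax and H2A.Z lines lie under 0 with both lists while the H3f3a and H3f3b lines lie above it, and the lines of Nasp and Chaf1b are flat from small pre-BII cells on because all values there were set to the limit.

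Similarity of profiles was described by Pearson's r over the 26 preparations, with other genes of the same array set. Large pre-BII preparations stand apart in many genes, so r mostly reflects the populations. H2az2 was most like Lmnb1, a nuclear lamina gene, and Cks1b (r = 0.94 each), and then Cdca3 (0.92). H2az1 was most like Lmnb1 (0.90) and the replication genes Cdc45 and Mcm6 (0.89 each). H2ax on the b set was most like Mki67, Hmgn2 and Tubb5 (0.88 each), and Slbp like Cenpl (0.93), 6430706D22Rik (0.92) and Iqgap3 (0.91).

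Among the dimmer genes, Nasp was most like Smc2 and Chek1 (0.85 each) and Ube2c (0.83), Chaf1b like Fen1 (0.89), Bub1 (0.88) and Kifc1 (0.85), and Dnmt1 like Anp32b (0.85), Ppia (0.84) and Tubb5 (0.83). By this r the H3.3 genes had no such close companions. The b-set members, the H3.3 genes among them, had 1300 candidate genes and the first-set members 3718. H3f3b was most like Oaz1 and Nelfcd (0.69 each) and Anp32a (0.68), and H3f3a like Fgf12 (0.63), Marcks (0.60) and Nnt (0.54), of which Fgf12 lay under the noise limit in large pre-BII cells. For deviations from population means, r with the named genes was 0.44 to 0.62 for H3f3b and -0.08 to 0.58 for H3f3a. It was -0.17 to 0.42 for H2az2, 0.30 to 0.63 for H2az1 and -0.27 to 0.27 for b-set H2ax. For Slbp it was 0.48 to 0.63, for Nasp 0.52 to 0.69, for Chaf1b 0.75 to 0.84 and for Dnmt1 0.20 to 0.66. H3f3a and H3f3b correlated with each other at 0.41. With the remaining 8 probe sets, H3f3a had r from -0.08 to 0.25 and H3f3b from -0.06 to 0.55.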

How the data were processed

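The authors deposited 1 linear-scale intensity per probe set and array, with negative values, for 28 first-set and 27 b-set arrays. Labelling, scanning and the summary of probes are steps not given in the sources used here. The gene symbols are those of the array annotation. After 55 control probe sets per set were dropped and identical arrays counted once, each set was quantile-normalised, and second arrays of a preparation were averaged. Values were raised to the 40th percentile (87.6 and 6.89) and log2 was taken. A probe set had to exceed that floor in 5 preparations. All preparations entered 1 limma fit per set (limma 3.58.1, R 4.3.3; lmFit, then eBayes with a trend), with a threshold of 0.05. The procedure was tested on simulated data. Promoter windows are from RefSeq. The genes, the lists, the motifs and the rules for naming were chosen with earlier results of these data known. Every probe set of the 9 genes is named, up to 3 called members of each list by adjusted p (others after their values were seen), and the 3 genes most like each member. The title numbers, read here as sort numbers, are shared between populations. Deviations from population means correlated at 0.11 to 0.3 in 5 same-numbered pairs of large pre-BII and pre-BI preparations, 0.14 to 0.25 in 3 of immature and small pre-BII and 0.12 to 0.21 in 4 of mature and immature preparations. The numbers were therefore taken to pair these, without values for differently numbered preparations to set beside them. They were not taken to pair small with large pre-BII (0.0032 to 0.24) or mature with pre-BI preparations (0.06 to 0.24).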

Additional observations from a re-analysis of the deposited data

Results flagged for a closer look

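Of 50 groups of preparations, 10 probe sets in 5 populations, 2 held a preparation far from the others by Dixon's ratio of gap to range, and chance flags about 1 in 20. For b-set H2ax, immature B sort 9 stood at 814, where the other immature preparations were at 962 to 1021. For H2az2, mature B sort 9 stood at 445, where the other mature preparations were at 620 to 680. Both are low values of sort 9.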

How the results depend on the processing

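Of the 18 called differences between consecutive populations and between mature and pre-BI cells, 5 kept their call under all 12 alternatives and in all 26 fits without 1 preparation, 13 lost it at least once, and 0 of 32 others gained one. No such called difference changed its sign. Those 5 included the fall of H2ax on both sets in small against large pre-BII cells. The rest were the mature against pre-BI differences of first-set H2ax, H2az1 and H2az2. With values as deposited, the fall in small against large pre-BII cells was lost for H2az1 (adjusted p = 0.236), H2az2 (0.149), Slbp (0.0572), Nasp (0.0655) and Chaf1b (0.117). In mature against large pre-BII cells 4 of 9 called differences kept their call throughout, and in mature against small pre-BII cells 0 of 3. The counts of called probe sets changed by over 1.5 times as follows, and the cause was not tested except that the fits within sorts use fewer preparations. In the large pre-BII against pre-BI comparison (2) it was 0 with values as deposited and 1 with the floor at the 25th percentile or with no filter. For small against large pre-BII cells (8) it was 3 as deposited, and for immature against small pre-BII cells (1) it was 0 as deposited or with 75th-percentile scaling. Within sorts 1 to 3 the counts were 0, 4 and 0 for these comparisons, 3 for mature against pre-BI cells (7) and 5 for the F test (10). Within sorts 8 to 11 they were 0, 5 and 0, and 6 for the F test. Leaving out 1 preparation gave 1 to 2, 7 to 8, 0 to 1, 0 to 0 (mature against immature) and 7 to 7, and 8 to 10 for the F test. Taking the sort number as a replicate block, the counts were 2, 8, 1, 0 and 7 and 10 for the F test, and the block changed no call. Smaller changes were a count of 6 for mature against pre-BI cells as deposited or with the floor at the 60th percentile or the noise limit, 5 there within sorts 8 to 11, 7 for small against large pre-BII cells under the 3 other floors, and for the F test 7 as deposited and 9 under both other scalings, the 2 higher floors or without second arrays. A test within pairs of sort numbers, added after the data were seen, kept the sign of all 8 differences between H2ax and H2A.Z probe sets and could not reach 0.05. Low signal limits Nasp, Chaf1b and Dnmt1 in small pre-BII, immature and mature B cells, where they have only a bound.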
